A study of Mus musculus with 12 samples.

Results

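The genes described here code for the extracellular part of Wnt signalling, namely the Wnt ligands, their Frizzled receptors (Fzd) and Lrp5/6 co-receptors, the R-spondins with their Lgr receptors, the secreted antagonists, and Axin2 as a readout. They were chosen by gene name among the protein-coding genes of the deposited table, and 45 of its 23150 genes matched, of which 17 were ligands, 10 were Frizzled receptors, 10 were secreted antagonists, 3 were R-spondins, 2 were co-receptors, 2 were Lgr receptors and 1 was Axin2. The mice were wild-type (WT) C57BL/6J immature females, all superovulated with pregnant mare serum gonadotropin and then with human chorionic gonadotropin (hCG) in place of the ovulatory surge. In each mouse 1 ovary was injected with 2 µg of recombinant Semaphorin 3E (Sema3E), a secreted guidance protein that binds Plexin-D1, in 10 µL of buffered saline with albumin, and the contralateral ovary with 2 µg of immunoglobulin G (IgG) in the same volume. At 8 h after hCG, granulosa cells (GCs) were released by needle puncture, and the residual tissue was kept as ovarian stromal tissue (OST). Bulk RNA-seq of both gave 4 groups of 3 libraries, GCs and OST after IgG and after Sema3E, with the cells or tissue of 1 ovary as 1 replicate. OST is thus defined by what puncture leaves behind and still held mRNA of granulosa cells and oocytes.

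Wnt proteins are lipid-modified ligands that bind a Frizzled receptor, with Lrp5 or Lrp6 as co-receptor where the signal runs through beta-catenin, and other ligands such as Wnt5a and Wnt11 are best known for signals that do not use beta-catenin. R-spondins bind Lgr receptors and keep Frizzled receptors at the cell surface, while the secreted Frizzled-related proteins (Sfrp1, Sfrp2, Sfrp4, Sfrp5 and Frzb) and Wif1 bind Wnt proteins, and Dkk1, Dkk2 and Dkk4 act on the co-receptors. In the mouse, Wnt4 and Rspo1 are needed for development of the ovary, and Fzd4 and Sfrp4 have been studied in granulosa and luteal cells. Axin2 encodes a part of the beta-catenin destruction complex and is itself transcribed in response to beta-catenin.

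The sequence upstream of 3 members is shown because Wnt4 and Wnt10b were the most abundant ligands in 11 of the 12 libraries and Axin2 is the pathway's own target. The sequences are from RefSeq (mouse GRCm38.p6) and run 5′ to 3′ on the gene's strand. They end at the RefSeq transcription start or, for Wnt4, where the GENCODE gene begins, so that no transcribed base is shown. Capitals mark the GC box GGGCGG on either strand, the letters bound by Sp1-type factors. The window of Axin2 lies at chr11:108920099-108920348 on the plus strand, that of Wnt10b at chr15:98778151-98778400 on the minus strand and that of Wnt4 at chr4:137277385-137277488 on the plus strand.
Axin2: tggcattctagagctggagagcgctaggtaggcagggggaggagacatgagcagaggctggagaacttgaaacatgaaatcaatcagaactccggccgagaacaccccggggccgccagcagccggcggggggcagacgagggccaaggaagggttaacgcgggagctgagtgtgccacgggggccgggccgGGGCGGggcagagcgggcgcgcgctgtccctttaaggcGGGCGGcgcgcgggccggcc
Wnt10b: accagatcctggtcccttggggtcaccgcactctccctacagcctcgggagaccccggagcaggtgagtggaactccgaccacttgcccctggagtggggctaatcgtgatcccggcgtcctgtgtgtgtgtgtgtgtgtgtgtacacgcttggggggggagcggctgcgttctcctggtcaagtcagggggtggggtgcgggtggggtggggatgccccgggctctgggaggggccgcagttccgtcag
Wnt4: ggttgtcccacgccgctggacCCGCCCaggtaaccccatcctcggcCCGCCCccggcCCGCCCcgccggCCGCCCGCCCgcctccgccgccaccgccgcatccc
The 104 bases of Wnt4 held 5 GC boxes with 83.7% G and C, the 250 bases of Axin2 held 2 with 69.2%, and the 250 bases of Wnt10b held 0 with 66.8%. None of these windows held the other motifs searched on both strands, which were the TCF/LEF letters CTTTGAT or CTTTGAA, the C/EBP letters TTGCNNAA and the cAMP response element TGACGTCA, so that no GC box overlapped another motif. Entries were found for 28 of the 45 members (31 entries). In the 250 bases before their start, a GC box stood in 22 of the 31 member entries and in 32.7% of all 32851 entries, a TCF/LEF match in 3 (Dkk1, Wnt11 and Wnt5b) and in 7.48%, a C/EBP match in 4 (Fzd1, Lgr4, Sfrp2 and Wnt3) and in 9.56%, and a cAMP response element in 0 and in 1.55%. These are matches of letters, and binding was not measured.

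Values are TPM, a level scaled by gene length and by the total of the library, which allows levels of different genes to be compared but keeps no record of depth. Puncture separated the tissues in that the summed TPM of 8 endothelial markers was 10.9 to 30.4 in GCs and 248 to 392 in OST, and that of 7 fibroblast markers was 29.8 to 94.1 in GCs and 1039 to 1403 in OST, whereas 9 granulosa markers reached 5991 to 12823 in GCs and still 5838 to 13583 in OST. Globin transcripts took 4.54% to 19.6% of the TPM in GCs and 0.261% to 0.637% in OST. In bulk libraries, fewer cells of a type and less RNA per cell cannot be told apart.
OST IgG replicate 3 stood apart from the other 5 OST libraries. Of the 9 granulosa markers, 6 were above and 1 was below all other OST libraries in it. The 7 theca and interstitial markers summed to 908 TPM in it and to 4700 to 6639 TPM in the others, with Star at 12.1 TPM against 1173 to 1801 TPM. This list is not particular to OST, since in GCs it summed to 2520 to 4373 TPM, with Star at 825 to 1474 TPM. Among the OST libraries, 5 of these 7 markers were lowest in OST IgG replicate 3, and Hpgd (34.4 TPM against 6.87 to 10.6 TPM) and Ptch1 (41.4 TPM against 9.78 to 20.6 TPM) were highest in it. The 8 oocyte markers summed to 1355 TPM in it against 286 to 490 TPM and the 6 oviduct markers to 93.5 TPM against 16.6 to 32.2 TPM. The 4 adipocyte markers in the table summed to 76.6 TPM in it and to 3.50 to 5.39 TPM in the others, where Adipoq and Cidec were listed at 0. Among the 30 members over 1 TPM in OST, 12 were above and 12 were below all other OST libraries in it, and of all 16273 such genes 47.8% were above and 25% below. GC IgG replicate 1 had the most macrophage marker TPM (2079, against 155 to 481 in the other GC libraries) and the highest globin share, and 15 of 22 members were lowest in it, as were 58.7% of all genes over 1 TPM in GCs. The part of these cell types in the results was not tested.

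**Figure D1:**
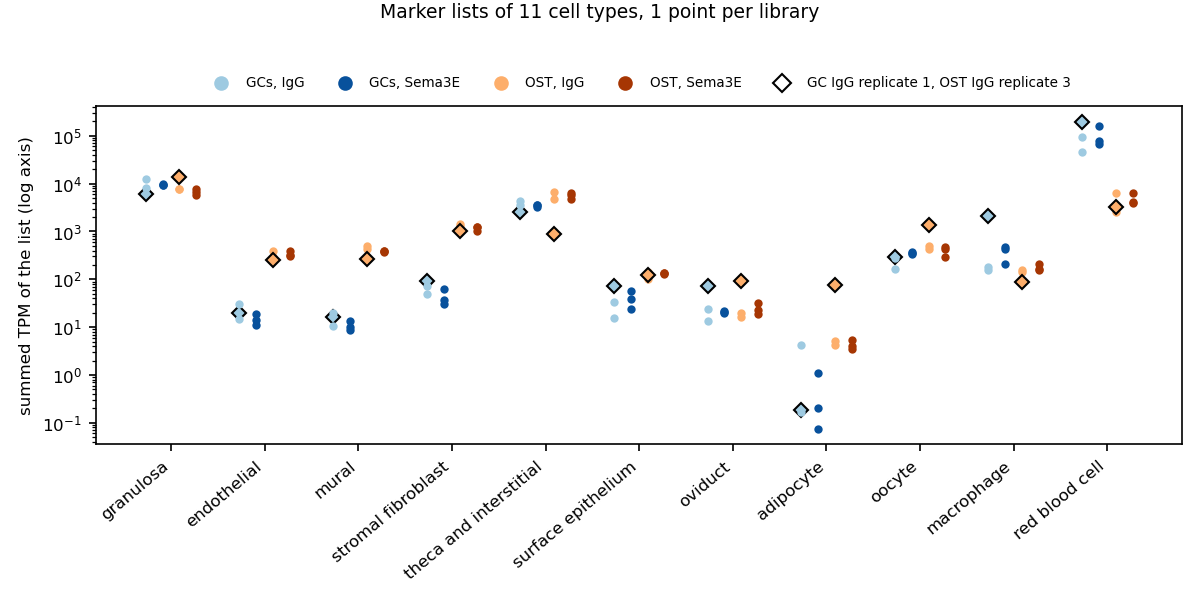
Summed TPM of the marker genes of 11 cell types (log axis) in each of the 12 libraries, coloured by group; outlined diamonds are GC IgG replicate 1 and OST IgG replicate 3. OST IgG replicate 3 lies at 908 TPM for theca and interstitial markers and at 1355 TPM for oocyte markers, outside the range of the other OST libraries, and GC IgG replicate 1 lies at 2079 TPM for macrophage markers.

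Transcripts of 30 of the 45 members were over 1 TPM in at least 1 library. The other 15 (Dkk1, Dkk2, Dkk4, Lgr5, Rspo3, Sfrp5, Wif1, Wnt1, Wnt16, Wnt2, Wnt3, Wnt7a, Wnt7b, Wnt8a and Wnt9b) reached at most 0.918 TPM, in Dkk1, and were not tested. In GCs 22 members passed 1 TPM in at least 1 library and 20 in every library, and in OST 30 passed in at least 1 library and 23 in every library. The 8 members over 1 TPM in OST and in no GC library were Frzb, Fzd10, Rspo1, Rspo2, Wnt10a, Wnt2b, Wnt5b and Wnt9a, and Wnt5b was over 1 TPM only in OST IgG replicate 3. In GRCm38, with GENCODE M21 gene bounds, the members that most results turn on lie as follows: Wnt2b on chromosome 3 from 104945272 to 104961921 (minus strand), Wnt4 on chromosome 4 from 137277489 to 137299726 (plus strand), Rspo1 on chromosome 4 from 124986430 to 125009099 (plus strand), Fzd3 on chromosome 14 from 65192449 to 65262463 (minus strand), Sfrp4 on chromosome 13 from 19623104 to 19632994 (plus strand) and Axin2 on chromosome 11 from 108920349 to 108950783 (plus strand). In 11 of the 12 libraries 1 member led the Sfrp, Frizzled and Wnt families. Sfrp4 made up 94.1% to 97.3% of the summed TPM of the Sfrp genes and Frzb in the GC libraries and 94.6% to 96.8% in 5 OST libraries, but in OST IgG replicate 3 Sfrp1 came first with 78.8%. Fzd1 made up 69.8% to 77.4% of Frizzled TPM in GCs and 50.3% to 59.8% in 5 OST libraries, and in OST IgG replicate 3 Fzd7 came first with 27.2%. Wnt4 made up 47.1% to 56.2% of Wnt ligand TPM in GCs and 41.3% to 56.5% in 5 OST libraries, and was followed by Wnt10b in those 11 libraries. The R-spondins had no such leader, with Rspo2 first in 5 GC libraries and Rspo1 first in GC IgG replicate 3 and in all 6 OST libraries.

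**Figure D2:**
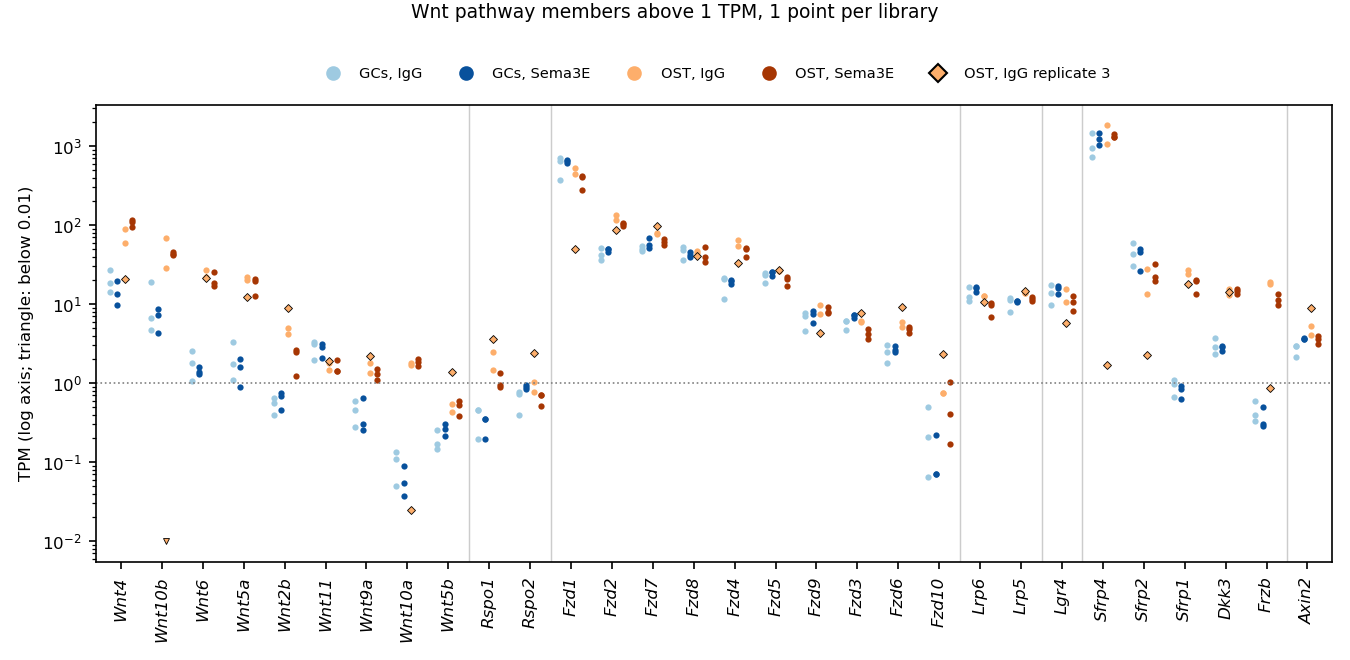
TPM (log axis) of the 30 members over 1 TPM, 1 point per library, grouped from left to right as ligands, R-spondins, Frizzled receptors, co-receptors, Lgr4, secreted antagonists and Axin2, with colours for the 4 groups and a diamond for OST IgG replicate 3. Sfrp4 and Fzd1 lie above the other members in 11 libraries, and in OST IgG replicate 3 they lie at 1.70 and 49.7 TPM.

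OST and GCs were first compared to find where in the ovary each member is transcribed. The ligands Wnt6, Wnt5a, Wnt2b and Wnt9a, the R-spondin Rspo1, the receptors Fzd2, Fzd4 and Fzd6 and the antagonists Sfrp1 and Dkk3 were higher in OST than in GCs in IgG ovaries and again in Sema3E ovaries. In IgG ovaries 11 of 30 tested members were higher in OST at an adjusted p under 0.05 in limma, a test on log2(TPM + 1) adjusted over all genes, and 0 were lower, and 17 had an unadjusted p under 0.05 (16 higher, and Sfrp2 lower), against 29.7% of all genes. Of all 16627 genes 8.64% passed, 8.34% higher and 0.301% lower. In Sema3E ovaries 19 of 28 members passed, against 45.2% of all 15698 genes, with 14 higher (28.2% of all genes) and 5 lower (17% of all genes). At an unadjusted p under 0.05, 21 members passed there (53.6% of all genes), 14 higher and 7 lower (32.2% and 21.4% of all genes). Of the 11 members higher in IgG ovaries 10 were also among the 14 higher in Sema3E ovaries, which is 90.9% of the first list and 71.4% of the second. The median log2 difference of the tested members was 0.76 in IgG ovaries and 0.53 in Sema3E ovaries, and that of all genes was 0.30 and 0.051. Of the called members, 3 of the 11 and 5 of the 14 were over 1 TPM in no GC library and so entered the test through OST alone.
In IgG ovaries, scaling each library by median ratios moved the median of all genes by −0.31 and left 5 members called (Dkk3, Sfrp1, Wnt2b, Wnt5a and Wnt6), where 4.98% of all genes passed. At an unadjusted p under 0.05, 26.9% of all genes were higher and 2.72% lower in OST before scaling and 14.2% and 11.1% after it; in Sema3E ovaries the shares were 32.2% and 21.4% before and 30.1% and 29.4% after. The same 5 were called whichever of the 6 libraries was left out. The count was 12 without OST IgG replicate 3 (12.1% of all genes) and 5 or 6 with any other 1 of these 6 left out (3.03% to 4.3% of all genes).

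**Figure D3:**
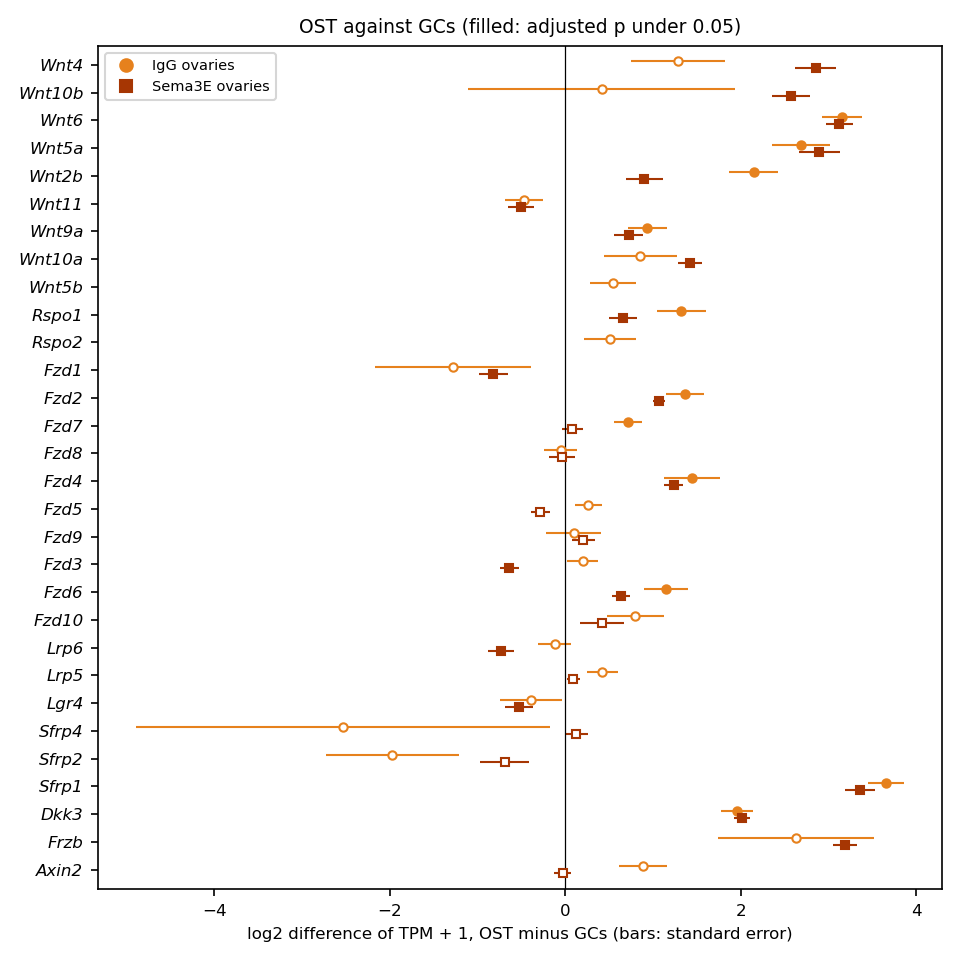
Log2 difference of TPM + 1 between OST and GCs for the 30 members, in IgG ovaries (circles) and Sema3E ovaries (squares), with bars for the standard error and filled symbols for an adjusted p under 0.05 in limma. The 10 members called in both lie to the right of 0, and Wnt10b and Sfrp4 have the widest bars in IgG ovaries, where OST IgG replicate 3 had 0 and 1.70 TPM.

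Among the ligands, 4 were called higher in OST in both treatments, and with all libraries Wnt4, Wnt10a and Wnt10b were called in Sema3E ovaries only. Wnt6 was at 1.08, 2.54 and 1.82 TPM in GCs after IgG and 1.37, 1.60 and 1.30 TPM after Sema3E. In OST it was at 27.3, 22.3 and 21.3 TPM after IgG and 25.6, 18.8 and 16.9 TPM after Sema3E, so that every OST library lay above every GC library (log2 difference 3.16, standard error 0.23, adjusted p = 0.000969 in limma in IgG ovaries; 3.12, 0.16 and 2.90e-05 in Sema3E ovaries).
Wnt5a, the prototype of the ligands that signal without beta-catenin, was at 1.75, 3.28 and 1.09 TPM in GCs after IgG and 2.00, 1.58 and 0.907 TPM after Sema3E. It was at 20.4, 22.2 and 12.2 TPM in OST after IgG and 12.6, 19.8 and 20.6 TPM after Sema3E, again without overlap of the tissues (log2 difference 2.69, standard error 0.33, adjusted p = 0.00580 in IgG ovaries; 2.90, 0.23 and 0.000184 in Sema3E ovaries, limma).
Wnt2b, a ligand of the beta-catenin branch, was under 1 TPM in all 6 GC libraries, with 0.657, 0.554 and 0.392 TPM after IgG and 0.742, 0.686 and 0.455 TPM after Sema3E. The OST level was 4.96, 4.24 and 8.96 TPM after IgG and 1.23, 2.63 and 2.45 TPM after Sema3E. The tissue difference was 2.15 in IgG ovaries (log2, standard error 0.28, adjusted p = 0.00712 in limma) and 0.90 in Sema3E ovaries (standard error 0.21, adjusted p = 0.0141).
Wnt9a, which acts in joint formation in the mouse, was at 0.593, 0.282 and 0.455 TPM in GCs after IgG and 0.648, 0.309 and 0.258 TPM after Sema3E, and at 1.33, 1.81 and 2.18 TPM in OST after IgG and 1.09, 1.51 and 1.32 TPM after Sema3E. Although low, it did not overlap between tissues, with log2 differences of 0.94 (standard error 0.22, adjusted p = 0.0468 in limma) and 0.72 (standard error 0.17, adjusted p = 0.0131), and the call in IgG ovaries was lost in each of the 6 fits without 1 library.

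Wnt4, which directs female gonad development, was the most abundant ligand in 11 of the 12 libraries. In GCs it was at 18.6, 27.1 and 14.1 TPM after IgG and 19.9, 13.4 and 9.76 TPM after Sema3E. In OST it was at 90.0, 59.4 and 20.7 TPM after IgG and 109.9, 94.2 and 115 TPM after Sema3E, so that OST IgG replicate 3 lay within the GC range and the other 5 OST libraries above it. The tissue difference passed in Sema3E ovaries (log2 difference 2.85, standard error 0.23, adjusted p = 0.000191 in limma) and was 1.28 in IgG ovaries (log2, standard error 0.53, adjusted p = 0.167), where it passed once OST IgG replicate 3 was left out (log2 difference 1.87, standard error 0.31, adjusted p = 0.0149).
Wnt10b, which holds back fat cell differentiation in the mouse, was at 6.62, 19.1 and 4.73 TPM in GCs after IgG and 8.77, 7.21 and 4.29 TPM after Sema3E. OST held it at 45.8, 42.3 and 42.7 TPM after Sema3E and at 68.4 and 29.1 TPM in IgG replicates 1 and 2, and it was listed at 0 in IgG replicate 3. The difference in Sema3E ovaries was 2.57 on the log2 scale (standard error 0.22, adjusted p = 0.000215 in limma), and the call was lost in 1 fit over all 12 libraries (adjusted p = 0.152). In IgG ovaries the difference was 0.42 (standard error 1.52, adjusted p = 0.862) and, without OST IgG replicate 3, 2.25 (standard error 0.68, adjusted p = 0.109). Its relative Wnt10a, known from tooth development, was at 0.0498, 0.135 and 0.110 TPM in GCs after IgG and 0.0552, 0.0902 and 0.0374 TPM after Sema3E, at 1.83, 2.04 and 1.65 TPM in OST after Sema3E and at 1.72, 1.81 and 0.0251 TPM in OST after IgG. As with Wnt10b, OST IgG replicate 3 alone was low among the OST libraries. The difference passed in Sema3E ovaries (log2 difference 1.42, standard error 0.14, adjusted p = 0.000363 in limma), and in IgG ovaries once OST IgG replicate 3 was left out (log2 difference 1.33, standard error 0.22, adjusted p = 0.0133; 0.86, 0.41 and 0.212 with it).
Wnt11, which in vertebrates is known for cell movements without beta-catenin, was the only ligand higher in GCs at an adjusted p under 0.05. It was at 3.16, 3.31 and 1.96 TPM in GCs after IgG and 2.87, 2.09 and 3.13 TPM after Sema3E, against 1.46, 1.81 and 1.90 TPM in OST after IgG and 1.42, 1.41 and 1.98 TPM after Sema3E. It passed in Sema3E ovaries (log2 difference −0.50, standard error 0.15, adjusted p = 0.0343 in limma) and not in IgG ovaries (log2 difference −0.47, standard error 0.22, adjusted p = 0.200), although the groups did not overlap in either.

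Rspo1, the R-spondin needed for ovary formation in the mouse, was at 0.455, 0.196 and 0.452 TPM in GCs after IgG and 0.350, 0.353 and 0.198 TPM after Sema3E. In OST it was at 2.48, 1.46 and 3.61 TPM after IgG and 0.888, 1.34 and 0.936 TPM after Sema3E. All OST libraries lay above all GC libraries, with log2 differences of 1.32 in IgG ovaries (standard error 0.28, adjusted p = 0.0347 in limma) and 0.66 in Sema3E ovaries (standard error 0.16, adjusted p = 0.0164). The call in IgG ovaries was lost in 4 of the 6 fits without 1 library. That in Sema3E ovaries was lost without GC Sema3E replicate 3 (adjusted p = 0.0620), and without OST Sema3E replicate 2 Rspo1 was over 1 TPM in no library and was not tested. Rspo2 ranged from 0.391 to 0.954 TPM in GCs and from 0.514 to 2.44 TPM in OST, and Rspo3 was under 1 TPM throughout. Lgr4, the R-spondin receptor among the members that was over 1 TPM, was higher in GCs in Sema3E ovaries (log2 difference −0.53, standard error 0.16, adjusted p = 0.0337 in limma). It was at 9.68, 17.6 and 13.7 TPM in GCs after IgG and 16.8, 13.6 and 15.8 TPM after Sema3E, and at 15.4, 10.6 and 5.86 TPM in OST after IgG and 8.16, 10.8 and 12.6 TPM after Sema3E. The calls of Lgr4 and of Wnt11 were each lost in 4 of the 6 fits without 1 library. Lgr6, another R-spondin receptor and here one of the other receptors of the pathway, was at 0.191 to 0.554 TPM in GCs and 0.754 to 4.72 TPM in OST.

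The Frizzled receptors divided between the tissues. Fzd2, Fzd4 and Fzd6 were higher in OST in both treatments, Fzd7 was higher in OST in IgG ovaries, and Fzd1 and Fzd3 were higher in GCs in Sema3E ovaries, whereas Fzd5, Fzd8, Fzd9 and Fzd10 passed in neither comparison.
Fzd1, the main Frizzled transcript, was at 371, 718 and 647 TPM in GCs after IgG and 612, 656 and 661 TPM after Sema3E. The OST level was 449, 531 and 49.7 TPM after IgG and 276, 410.4 and 423 TPM after Sema3E. All 3 OST libraries of Sema3E ovaries lay below all 3 GC libraries (log2 difference −0.82, standard error 0.16, adjusted p = 0.00761 in limma), and the call was lost in 1 fit over all 12 libraries (adjusted p = 0.442). In IgG ovaries the difference did not pass with OST IgG replicate 3 (log2 difference −1.28, standard error 0.89, adjusted p = 0.352) or without it (log2 difference −0.19, standard error 0.30, adjusted p = 0.695).
Fzd2, a receptor studied with Wnt5a, was at 35.8, 41.6 and 51.4 TPM in GCs after IgG and 45.7, 49.8 and 49.9 TPM after Sema3E, and at 117, 133 and 87.3 TPM in OST after IgG and 106, 104 and 98.4 TPM after Sema3E. Every OST library was above every GC library, with log2 differences of 1.36 (standard error 0.22, adjusted p = 0.0149 in limma) and 1.07 (standard error 0.069, adjusted p = 6.95e-05).
Fzd4, which also binds Norrin in blood vessels and is needed for luteal function in the mouse, was at 11.7, 21.1 and 21.3 TPM in GCs after IgG and 20.4, 19.6 and 18.1 TPM after Sema3E. It was at 64.1, 55.0 and 33.7 TPM in OST after IgG and 39.9, 50.0 and 51.5 TPM after Sema3E, higher by 1.45 (standard error 0.32, adjusted p = 0.0404 in limma) and 1.23 (standard error 0.11, adjusted p = 0.000291) on the log2 scale. The 8 endothelial markers, whose summed TPM was also higher in every OST library than in any GC library, were not tested for their part in this.
Fzd6, which sets hair patterns in the mouse, was at 1.82, 2.48 and 3.08 TPM in GCs after IgG and 2.67, 2.97 and 2.48 TPM after Sema3E, and at 5.14, 6.01 and 9.10 TPM in OST after IgG and 4.33, 5.10 and 4.82 TPM after Sema3E. The tissues did not overlap (log2 differences 1.15 and 0.63, standard errors 0.25 and 0.10, adjusted p = 0.0389 and 0.00276 in limma).
Fzd7, a receptor of intestinal stem cells in the mouse, was at 46.9, 54.8 and 50.4 TPM in GCs after IgG and 68.1, 51.2 and 56.7 TPM after Sema3E, and at 76.7, 78.7 and 97.8 TPM in OST after IgG and 56.9, 66.5 and 61.9 TPM after Sema3E. It was higher in OST in IgG ovaries (log2 difference 0.72, standard error 0.16, adjusted p = 0.0418 in limma), while in Sema3E ovaries the tissues overlapped (log2 difference 0.08, standard error 0.12, adjusted p = 0.608). In IgG ovaries the calls of Fzd2, Fzd4, Fzd6 and Fzd7 were lost in 5, 8, 7 and 9 of the 14 alternatives, and those of Fzd4 and Fzd6 in Sema3E ovaries were kept in all 14.
Fzd3 was at 4.66, 6.13 and 6.17 TPM in GCs after IgG and 7.31, 6.75 and 7.27 TPM after Sema3E, and at 6.03, 6.15 and 7.67 TPM in OST after IgG and 3.60, 4.88 and 4.25 TPM after Sema3E. The tissues overlapped in IgG ovaries (log2 difference 0.20, standard error 0.18, adjusted p = 0.462 in limma) and not in Sema3E ovaries (log2 difference −0.63, standard error 0.11, adjusted p = 0.00432). Fzd5 was at 18.7, 23.4 and 25.0 TPM in GCs after IgG and 25.2, 22.8 and 25.5 TPM after Sema3E, and at 26.9, 26.3 and 27.3 TPM in OST after IgG and 17.2, 20.9 and 21.9 TPM after Sema3E. It lay above the GC libraries in OST of IgG ovaries and below them in OST of Sema3E ovaries, and neither difference passed (log2 difference 0.26, standard error 0.16, adjusted p = 0.286 in IgG ovaries; −0.29, 0.11 and 0.0688 in Sema3E ovaries). After scaling by median ratios Fzd5 passed in Sema3E ovaries (log2 difference −0.36, standard error 0.068, adjusted p = 0.00648).
Fzd8 was at 35.9, 53.1 and 48.9 TPM in GCs after IgG and 45.8, 39.9 and 42.5 TPM after Sema3E, and at 47.0, 44.0 and 40.4 TPM in OST after IgG and 34.6, 39.6 and 52.3 TPM after Sema3E, with overlap of all 4 groups. The 95% interval of its tissue difference ran from −0.50 to 0.39 in IgG ovaries and from −0.40 to 0.33 in Sema3E ovaries (log2, limma). Fzd9 ranged from 4.29 to 9.84 TPM and Fzd10 from 0.0647 to 2.34 TPM over the 12 libraries.

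Both co-receptors were detected in every library. Lrp6 was at 11.1, 16.5 and 12.2 TPM in GCs after IgG and 15.9, 14.3 and 16.3 TPM after Sema3E, and at 12.6, 12.8 and 10.5 TPM in OST after IgG and 6.96, 9.78 and 10.4 TPM after Sema3E. It was higher in GCs in Sema3E ovaries (log2 difference −0.73, standard error 0.15, adjusted p = 0.00752 in limma), without overlap. Lrp5, known for its part in bone mass and retinal vessels, was at 8.07, 11.3 and 11.8 TPM in GCs after IgG and 11.1, 10.5 and 10.9 TPM after Sema3E, and at 14.0, 13.8 and 14.5 TPM in OST after IgG and 11.0, 12.2 and 11.8 TPM after Sema3E. Its tissue difference did not pass in IgG ovaries (log2 difference 0.42, standard error 0.18, adjusted p = 0.166) or Sema3E ovaries (log2 difference 0.092, standard error 0.074, adjusted p = 0.346).

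Among the antagonists, Sfrp1 and Dkk3 were higher in OST in both treatments, and Frzb was higher in Sema3E ovaries. Sfrp1 was at 0.668, 1.08 and 0.977 TPM in GCs after IgG and 0.837, 0.928 and 0.633 TPM after Sema3E. In OST it was at 24.3, 27.2 and 18.2 TPM after IgG and 13.3, 20.5 and 19.4 TPM after Sema3E, so that the lowest OST library (13.3 TPM) was far above the highest GC library (1.08 TPM). The difference passed in both treatments (log2 difference 3.65, standard error 0.20, adjusted p = 0.000486 in limma in IgG ovaries; 3.36, 0.17 and 2.94e-05 in Sema3E ovaries).
Dkk3, which despite its name is not an established inhibitor of Wnt co-receptors, was at 2.35, 2.89 and 3.75 TPM in GCs after IgG and 2.95, 2.88 and 2.58 TPM after Sema3E. OST held it at 13.1, 15.8 and 14.3 TPM after IgG and 13.3, 14.5 and 15.4 TPM after Sema3E, and OST IgG replicate 3 lay between the other OST libraries. Its tissue difference was 1.96 (log2, standard error 0.18, adjusted p = 0.00234 in limma) and 2.02 (standard error 0.089, adjusted p = 1.78e-05).
Frzb, the founding member of the secreted Frizzled-related proteins, was under 1 TPM in GCs, at 0.336, 0.603 and 0.392 TPM after IgG and 0.288, 0.500 and 0.305 TPM after Sema3E. In OST it was at 17.9, 19.1 and 0.881 TPM after IgG and 9.73, 13.4 and 11.3 TPM after Sema3E, so that of the OST libraries IgG replicate 3 alone was under 1 TPM. The difference passed in Sema3E ovaries (log2 difference 3.19, standard error 0.13, adjusted p = 1.54e-05 in limma), and in IgG ovaries once OST IgG replicate 3 was left out (log2 difference 3.76, standard error 0.16, adjusted p = 0.000234; 2.63, 0.89 and 0.113 with it).
Sfrp4, an antagonist known in rodents for its rise around ovulation and in corpora lutea, was the most abundant member in 11 of the 12 libraries. In GCs it was at 721, 1455 and 957 TPM after IgG and 1469.9, 1024 and 1226 TPM after Sema3E. In OST it was at 1294, 1303 and 1419 TPM after Sema3E and at 1828, 1056 and 1.70 TPM after IgG. Apart from OST IgG replicate 3, the libraries of both tissues lay between 721 and 1828 TPM, and the 95% interval of the tissue difference in Sema3E ovaries ran from −0.19 to 0.44 (log2, limma). In IgG ovaries the difference was −2.53 (standard error 2.36, adjusted p = 0.472) and, without OST IgG replicate 3, 0.47 (standard error 0.37, adjusted p = 0.427).
Sfrp2 was at 30.3, 43.6 and 58.7 TPM in GCs after IgG and 50.1, 26.6 and 46.3 TPM after Sema3E, and at 27.8, 13.6 and 2.30 TPM in OST after IgG and 19.5, 22.3 and 32.3 TPM after Sema3E. The difference did not pass in IgG ovaries (log2 difference −1.97, standard error 0.76, adjusted p = 0.145 in limma) or Sema3E ovaries (log2 difference −0.69, standard error 0.28, adjusted p = 0.0853), where it passed after scaling (log2 difference −0.76, standard error 0.26, adjusted p = 0.0489).
Axin2 was at 2.92, 2.97 and 2.16 TPM in GCs after IgG and 3.74, 3.62 and 3.61 TPM after Sema3E, and at 5.23, 4.08 and 8.85 TPM in OST after IgG and 3.59, 3.95 and 3.17 TPM after Sema3E. In IgG ovaries the OST libraries lay above the GC libraries (log2 difference 0.89, standard error 0.27, adjusted p = 0.0916 in limma), and in Sema3E ovaries the tissues overlapped (log2 difference −0.031, standard error 0.10, adjusted p = 0.814).

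Sema3E was compared with IgG in OST to ask how the injected protein altered the tissue around the follicles. In OST of Sema3E ovaries the ligand Wnt2b, the R-spondin Rspo1 and the receptors Fzd3, Fzd5, Fzd7 and Lrp5 were lower at an unadjusted p under 0.05, and Wnt4 was higher in every Sema3E library than in any IgG library. None of the members passed in limma after adjustment, and neither did any other gene (0% of 16273). At an unadjusted p under 0.05, 6 of 30 members were lower and 0 higher, against 14.9% of all genes, 13.2% lower and 1.68% higher. With a fold over 2 as well, 1 member remained (Wnt2b), against 0.946% of all genes. The study set the same cutoffs on DESeq2, and here they were set on limma and log2(TPM + 1). The pseudocount makes the folds of low genes smaller, so this count is not the outcome of the study's own test. The 6 became 10 without OST IgG replicate 3 (20.1% of all genes) and 3 without OST Sema3E replicate 1 (5.87% of all genes). The 1 became 3 with replicate 1 of OST IgG left out, and 0 without replicate 3 of OST IgG or replicate 1 of OST Sema3E. For these fits the shares of all genes with the fold are not given. The groups did not overlap in 11 members, 10 lower (29.9% of all genes) and 1 higher (3.67% of all genes). The median log2 difference was −0.16 for the 30 members and −0.18 for all genes, and scaling by median ratios moved the median of all genes by 0.17 and left 3 of the 6 at an unadjusted p under 0.05 (Fzd3, Rspo1 and Wnt2b), where 3.94% of all genes were lower and 5.67% higher.
Markers of other cells were also compared between these groups. The 8 oocyte markers summed to 427 to 1355 TPM in OST after IgG and 286 to 469 TPM after Sema3E, with 8 of 8 below 0 in their log2 difference, and the 9 granulosa markers summed to 7626 to 13583 TPM and 5838 to 7682 TPM, with 2 of 9 above 0. The median log2 difference was −0.79 for the oocyte markers and −0.40 for the granulosa markers, and without OST IgG replicate 3 it was −0.26 and −0.17. In both lists 0 markers were at an unadjusted p under 0.05. Of 7 tested surface epithelium markers 2 were higher and 2 lower at that level, against 1.68% and 13.2% of all genes. The part of these markers in the results was not tested.

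**Figure D4:**
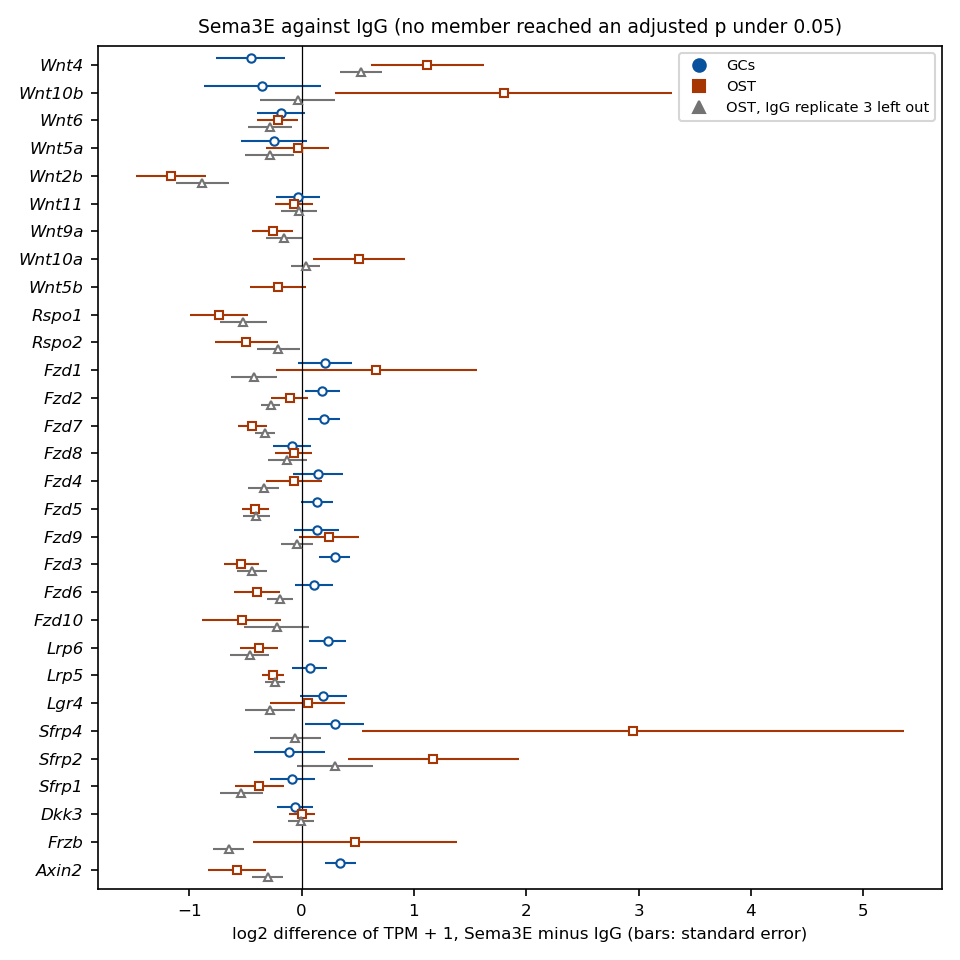
Log2 difference of TPM + 1 between Sema3E and IgG ovaries in GCs (circles), in OST (squares) and in OST with IgG replicate 3 left out (triangles), with bars for the standard error; no member reached an adjusted p under 0.05 in limma. Wnt2b lies at −1.16 and Wnt4 at 1.12 in OST, and the wide bars of Sfrp4, Wnt10b, Frzb, Fzd1 and Sfrp2 shrink when OST IgG replicate 3 is left out.

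Wnt2b, Wnt4 and Rspo1 are on the study's own list of genes altered in OST, a list drawn from these libraries, so that their direction is not independent evidence. Wnt2b was lower in all 3 Sema3E libraries (1.23 to 2.63 TPM) than in the 3 IgG libraries (4.24 to 8.96 TPM), a ratio of mean TPM of 0.347. Its log2 difference was −1.16 (standard error 0.31, adjusted p = 0.332 in limma), −0.88 without OST IgG replicate 3, in which it was highest (standard error 0.24, adjusted p = 0.231), and it was negative at an unadjusted p under 0.05 after scaling as well. It stayed at an unadjusted p under 0.05 whichever library was left out.
Rspo1 was at 0.888 to 1.34 TPM after Sema3E and 1.46 to 3.61 TPM after IgG (log2 difference −0.74, standard error 0.26, adjusted p = 0.332 in limma). It was also highest in OST IgG replicate 3, and without that library the difference was −0.52 (standard error 0.21, adjusted p = 0.248) and no longer at an unadjusted p under 0.05. This was also so without OST IgG replicate 1, without OST Sema3E replicate 1 and without OST Sema3E replicate 3.
Wnt4 lay the other way, with 94.2 to 115 TPM after Sema3E and 20.7 to 90.0 TPM after IgG. The difference did not pass (log2 difference 1.12, standard error 0.50, adjusted p = 0.341 in limma), and without OST IgG replicate 3, its lowest library, it was smaller and more precise (log2 difference 0.53, standard error 0.19, adjusted p = 0.235). Wnt4 thus reached an unadjusted p under 0.05 without that library, where 3.32% of all 15452 genes were higher by that measure.

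Each of the receptors lower in OST at an unadjusted p under 0.05 differed by less than 2-fold. Fzd3, a receptor known from axon guidance in the mouse, was at 3.60 to 4.88 TPM after Sema3E and 6.03 to 7.67 TPM after IgG (log2 difference −0.54, standard error 0.16, adjusted p = 0.332 in limma). Fzd5, which in the mouse is needed for yolk sac vessels, was at 17.2 to 21.9 TPM after Sema3E and 26.3 to 27.3 TPM after IgG (log2 difference −0.41, standard error 0.12, adjusted p = 0.332). For Fzd7 the ranges were 56.9 to 66.5 TPM and 76.7 to 97.8 TPM (log2 difference −0.44, standard error 0.13, adjusted p = 0.332), and for Lrp5 they were 11.0 to 12.2 TPM and 13.8 to 14.5 TPM (log2 difference −0.26, standard error 0.10, adjusted p = 0.332). The groups of each of these 4 did not overlap. Fzd3 and Fzd5 stayed at an unadjusted p under 0.05 in all 6 fits without 1 library and Fzd7 in 5, but not without OST Sema3E replicate 1. Lrp5 stayed there in 1 of the 6, the fit without OST IgG replicate 3. Fzd6 and Lrp6 also did not overlap, with adjusted p = 0.368 and 0.341 in limma, nor did Axin2 (log2 difference −0.57, standard error 0.26, adjusted p = 0.341) or Rspo2. Rspo2 was over 1 TPM in 2 OST libraries after IgG and in none after Sema3E. Lower values without overlap were found in 10 of 30 members and in 29.9% of all genes, so they are not particular to these members. After scaling by median ratios they were found in 6 of 30 members, Axin2 not among them, and in 13% of all genes.
These shifts are to be read against the median of all genes of −0.18. Relative to scaled libraries the differences of Fzd5, Fzd7 and Lrp5 were −0.21, −0.23 and −0.061 (adjusted p = 0.508, 0.510 and 0.691 in limma), and that of Fzd3 was −0.36 (adjusted p = 0.508).

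Sfrp4, Wnt10b, Fzd1, Sfrp2 and Wnt10a had mean differences after Sema3E that rested on OST IgG replicate 3. In that library Sfrp4 was at 1.70 TPM and Fzd1 at 49.7 TPM, against 1056 to 1828 TPM and 276 to 531 TPM in the other 5 OST libraries, and 5 of the 7 theca and interstitial markers were lowest in it and 2 highest. With that library the log2 difference was 2.95 for Sfrp4 (standard error 2.41), 1.17 for Sfrp2 (standard error 0.76) and 0.66 for Fzd1 (standard error 0.89). Without it the values were −0.055 (standard error 0.22), 0.29 (standard error 0.34) and −0.42 (standard error 0.20), and Wnt10b and Wnt10a had log2 differences of −0.036 and 0.038. None of these passed an unadjusted p under 0.05 in limma with or without the library.
The sign of the difference of Frzb depended on that library. With OST IgG replicate 3 the log2 difference was 0.47 (standard error 0.91, adjusted p = 0.773 in limma), and without it the 3 Sema3E libraries (9.73 to 13.4 TPM) lay below both IgG libraries (17.9 and 19.1 TPM; log2 difference −0.65, standard error 0.14, adjusted p = 0.231). Sfrp1 and Fzd2 were also lower at an unadjusted p under 0.05 without that library, though Fzd2 was above 0 when all libraries were scaled, with log2 differences of −0.54 and −0.28 (adjusted p = 0.235 and 0.231), as was Lrp6 (−0.46, adjusted p = 0.237). In that fit 9 of 29 members were lower at an unadjusted p under 0.05, against 16.8% of all genes, and 0 passed an adjusted p under 0.05, against 0.0712% of all genes. With the libraries scaled as well, 5 of 29 were lower at an unadjusted p under 0.05, against 5.98% of all genes. These were Frzb, Fzd3, Fzd5, Fzd7 and Wnt2b, and Sfrp1, Fzd2, Lrp5 and Lrp6 were not among them.

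**Figure D5:**
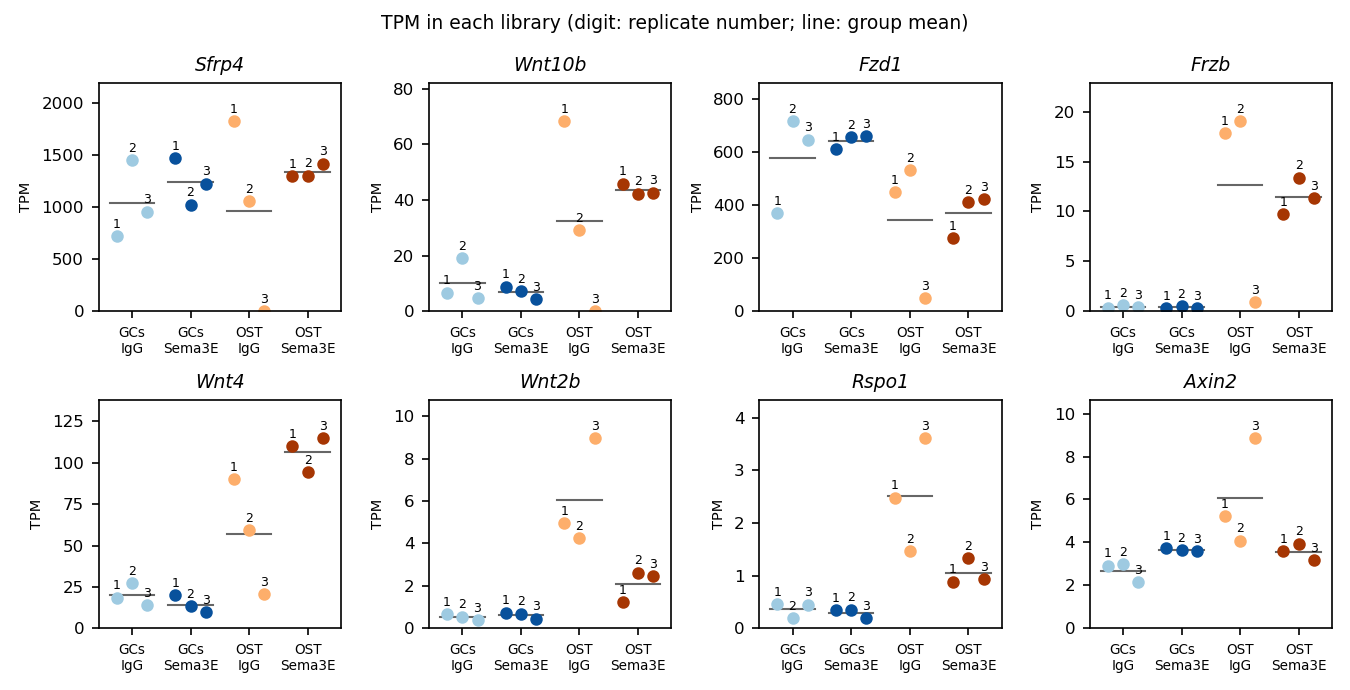
TPM of 8 members in each library (digits give the replicate number, horizontal lines the group mean), on a linear axis from 0. OST IgG replicate 3 lies far below the other OST libraries for Sfrp4 (1.70 TPM), Wnt10b (0), Fzd1 (49.7 TPM) and Frzb (0.881 TPM), and above them for Wnt2b, Rspo1 and Axin2; the 3 Sema3E libraries of OST lie above all IgG libraries for Wnt4.

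The same comparison in GCs asked whether the injected Sema3E altered the follicle cells themselves. Axin2 was higher at an unadjusted p under 0.05, Fzd3 was higher in all Sema3E libraries than in any IgG library, and the ligands, antagonists and remaining receptors overlapped. Of 22 tested members 0 passed in limma after adjustment (0.0661% of all 15128 genes, 0.0331% in each direction) and 1 passed an unadjusted p under 0.05, namely Axin2, against 5.11% of all genes (4.03% higher). Among the GC libraries after IgG, leaving out replicates 1, 2 and 3 in turn made this count 2, 3 and 0 (10.6%, 5.32% and 6.95% of all genes). It was 0 with replicate 2 or 3 after Sema3E left out (3.47% and 2.85% of all genes). Groups without overlap were 2 higher (8.99% of all genes) and 0 lower (2.05% of all genes). The median log2 difference was 0.12 for the 22 members and 0.057 for all genes, and after scaling the unadjusted p was under 0.05 in 3.97% of all genes with a rise and 3.7% with a fall. The oocyte markers summed to 345 to 378 TPM after Sema3E and 168 to 289 TPM after IgG, with 6 of 7 tested markers higher at an unadjusted p under 0.05, and their part in the results was not tested.
Axin2 was at 3.61 to 3.74 TPM after Sema3E and 2.16 to 2.97 TPM after IgG (log2 difference 0.35, standard error 0.14, adjusted p = 0.966 in limma). Its unadjusted p was above 0.05 in 4 of the 6 fits without 1 library and after scaling. The log2 difference after scaling was 0.28, and the groups then overlapped. Fzd3 was at 6.75 to 7.31 TPM after Sema3E and 4.66 to 6.17 TPM after IgG (log2 difference 0.29, standard error 0.14, adjusted p = 0.999). The granulosa markers summed to 9238 to 9843 TPM after Sema3E. In GC IgG replicates 2 and 3 they summed to 8163 and 12823 TPM, with Fzd3 at 6.13 and 6.17 TPM. Their part was not tested, and they were lowest in GC IgG replicate 1 (5991 TPM), the library in which Fzd3 was also lowest. Without that library the groups of both members still did not overlap, with log2 differences of 0.39 for Axin2 (adjusted p = 0.420 in limma) and 0.18 for Fzd3 (adjusted p = 0.492). They were the 2 of 22 members higher without overlap in that fit, against 13.5% of all genes. Another 5 (Fzd4, Fzd8, Lrp5, Sfrp1 and Wnt6) were lower without overlap, against 17.5% of all genes. Of these, Fzd8 was lower at an unadjusted p under 0.05 (adjusted p = 0.443), as were 5.19% of all genes.
For the abundant members the intervals were wide. The 95% interval of the difference after Sema3E ran from −0.33 to 0.91 for Sfrp4, from −0.35 to 0.77 for Fzd1, from −1.18 to 0.28 for Wnt4 and from −1.66 to 0.96 for Wnt10b (log2, limma), so that the intervals of Wnt4 and Wnt10b reached past a 2-fold fall.

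The difference between the tissues in the response to Sema3E was tested in one fit over the 12 libraries. None of the members passed in limma after adjustment (0% of 16903 genes), and 8 of 30 were at an unadjusted p under 0.05, against 18.3% of all genes. Of these 7 were lower in OST than in GCs in their response (16.9% of all genes) and 1, Wnt4, was higher (1.41% of all genes). Wnt4 differed by 1.57 (standard error 0.64, adjusted p = 0.244), with 1.12 after Sema3E in OST and −0.45 in GCs, and its p was above 0.05 in 7 of 20 alternatives. Wnt2b differed by −1.25 (standard error 0.36, adjusted p = 0.199), though it was under 1 TPM in all GC libraries. Fzd5, Fzd7, Lrp6 and Rspo2 differed by −0.55, −0.64, −0.61 and −0.71 (adjusted p = 0.204, 0.199, 0.236 and 0.270). Their p was above 0.05 in 0, 1, 8 and 14 of 20 alternatives. Rspo2 was over 1 TPM in 2 OST libraries after IgG and in no other library. It thus entered the test only through the group in which it was highest. Axin2 and Fzd3 are described among the additional observations. Leaving out any 1 of the 12 libraries kept Axin2, Fzd3, Fzd5, Fzd7 and Wnt2b at an unadjusted p under 0.05. The count of 8 became 5 when replicate 1 of GC IgG, replicate 3 of GC Sema3E or replicate 1 of OST Sema3E was left out (15.4%, 12.9% and 12.8% of all genes). The median difference was −0.21 for the members and −0.22 for all genes, and scaling moved the latter by 0.23 and put 8% of all genes above and 8.07% below 0 at an unadjusted p under 0.05. Of the 8 oocyte markers 7 were lower in this contrast at an unadjusted p under 0.05, with a median of −1.31. Without OST IgG replicate 3 these were 6 of 8 and −0.78, and their part in the contrast was not tested.

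Other genes of the pathway were taken from 3 lists, whose counts are set beside the shares of all genes. The first held 29 genes for Wnt secretion and the intracellular pathway. Wls, which carries Wnt proteins to the cell surface, was at 3.69, 4.52 and 4.48 TPM in GCs after IgG and 10.1, 11.0 and 7.65 TPM in OST, and was the 1 of 28 tested genes called higher in OST in IgG ovaries (log2 difference 1.01, standard error 0.18, adjusted p = 0.0229 in limma), with 0 lower (8.34% and 0.301% of all genes). In Sema3E ovaries 4 of 27 were higher and 10 lower (28.2% and 17% of all genes). Among those higher was Wls (log2 difference 0.83, adjusted p = 0.000516), and among those lower were Dvl3, which relays the Frizzled signal, Tnks, which marks Axin proteins for breakdown, and Porcn, which attaches the lipid to Wnt proteins (log2 differences −0.81, −0.77 and −0.86, adjusted p = 0.000828, 0.00107 and 0.00151).
After Sema3E none of the 28 passed in OST after adjustment in limma, and 9 were lower at an unadjusted p under 0.05 with 0 higher (13.2% and 1.68% of all genes), with a median log2 difference of −0.27 against −0.18 for all genes. The smallest p among them had Dvl3 (−0.53), the corepressor Tle1 (−0.47), Dvl2 (−0.36) and Tnks2 (−0.39), with an adjusted p of 0.332 for each. In GCs 0 of 27 passed an adjusted p under 0.05, and 3 were higher at an unadjusted p under 0.05 (4.03% of all genes), namely Pygo1, Tnks and Apc (log2 differences 0.40, 0.37 and 0.31, adjusted p = 0.936, 0.936 and 0.971), with a median of 0.15 against 0.057.

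The second list held 26 other receptors and modulators. In IgG ovaries 4 of 21 tested genes were higher in OST, namely Lrp4, Prickle1, Ptk7 and Gpc3 (log2 differences 1.44, 1.16, 0.85 and 1.25, adjusted p = 0.00970, 0.0371, 0.0426 and 0.0477 in limma), and 0 were lower, against 8.34% and 0.301% of all genes. Prickle1 and Ptk7 act in planar cell polarity. Gpc3 was at 0.0513 to 0.0739 TPM in the GC libraries and so entered the test through OST alone. In Sema3E ovaries 6 of 18 were higher and 4 lower (28.2% and 17% of all genes), among the latter the polarity cadherin Celsr2 and the glypican Gpc4 (log2 differences −1.23 and −1.21, adjusted p = 0.000476 and 0.00321). After Sema3E 0 genes of this list passed an adjusted p under 0.05 in either tissue in limma, and at an unadjusted p under 0.05 3 of 21 were lower in OST, against 13.2% of all genes (Celsr2, Vangl2 and Ptk7, with log2 differences of −0.48, −0.42 and −0.27) and 1 of 15 was lower in GCs, against 1.08% of all genes (Tpbg, log2 difference −0.60, adjusted p = 0.854).
The third list held 18 genes known elsewhere as targets of beta-catenin. In IgG ovaries 4 of 15 were higher in OST, against 8.34% of all genes, namely the feedback inhibitor Nkd1, the transcription factor gene Tbx3, Tnfrsf19 and the cell cycle gene Ccnd1 (log2 differences 1.57, 2.66, 1.41 and 2.12, adjusted p = 0.00580, 0.00962, 0.0131 and 0.0314 in limma). Tnfrsf19 was at 0.0945 to 0.227 TPM in the GC libraries and so entered the test through OST alone. In Sema3E ovaries 6 of 12 genes of this list were higher and 2 lower (28.2% and 17% of all genes). After Sema3E none passed in either tissue in limma after adjustment, and at an unadjusted p under 0.05 2 of 15 were lower in OST, against 13.2% of all genes, the insulin signalling adaptor gene Irs1 and Tnfrsf19 (log2 differences −1.03 and −0.55, adjusted p = 0.332 and 0.332), and 0 of 10 in GCs. Irs1 was at 5.83, 6.70 and 11.9 TPM in OST after IgG and 2.53, 4.15 and 3.40 TPM after Sema3E, and like Axin2 it was highest in OST IgG replicate 3.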

How the data were processed

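The authors deposited TPM per gene for 12 libraries, made from reads aligned to GRCm38/mm10 with HISAT2 (version 2.0.5), counted with featureCounts (version 1.5.0-p3) and converted with edgeR (given as version 1.3.3). Sequencing depth cannot be read from TPM, and is therefore not given. Genes over 1 TPM in at least 1 library of a comparison were tested with limma (version 3.58.1, R 4.3.3; mean-variance trend, robust) on log2(TPM + 1), which understates the change of low genes, with Benjamini-Hochberg adjustment over every gene tested. Differences are of log2(TPM + 1), and each comparison was fitted on its 6 libraries, the tissue difference on 12. The code was tested on simulated data.

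Gene positions were taken from GENCODE M21 (GRCm38) by gene identifier for 45 of 45 members, since the coordinates in the table differ. Of the names the rule matches in GENCODE M21, 2 were not analysed here. Values in every library are given for members past an adjusted p under 0.05 in any comparison, past an unadjusted p under 0.05 after Sema3E, or above a mean of 10 TPM in a group, and for Rspo1, Wnt2b and Wnt4; of each list, up to 4 genes with the smallest p. Members and lists were chosen with earlier results of these data known. The sources used here do not give which ovaries shared a mouse, and the main fits were unpaired. Alternatives were a pseudocount of 0.1, scaling by median ratios, no filter, limma without robust estimation, protein-coding genes only, 1 fit over all 12 libraries, a replicate block and leaving out each library. Scaling over protein-coding genes only, and scaling without OST IgG replicate 3, were added after seeing the data.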

Additional observations from a re-analysis of the deposited data

Results flagged for a closer look

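In unscaled TPM, Axin2 and Fzd3 were higher in every GC library after Sema3E than in any after IgG. In OST they were lower in every Sema3E library than in any IgG library. Of all genes, 8.99% were higher without overlap in GCs and 29.9% were lower without overlap in OST. Both members were picked for this pattern in these same libraries. The share of all genes with the pattern in both tissues was not computed, so it has no background to be set against. Axin2 was at 3.74, 3.62 and 3.61 TPM in GCs after Sema3E and 2.92, 2.97 and 2.16 TPM after IgG, and at 3.59, 3.95 and 3.17 TPM in OST after Sema3E and 5.23, 4.08 and 8.85 TPM after IgG. Its response in OST minus that in GCs was −0.92 on the log2 scale (standard error 0.30, adjusted p = 0.204 in limma), and it ranged from −1.13 to −0.45 over 20 alternatives. The value of smallest size, with OST IgG replicate 3 left out and the libraries scaled, did not reach an unadjusted p under 0.05. After scaling of all libraries by median ratios, the groups of Axin2 overlapped in both tissues, and those of Fzd3 in neither. In those fits 8% of all genes were higher without overlap in GCs and 13% were lower without overlap in OST. Fzd3 was at 7.31, 6.75 and 7.27 TPM in GCs after Sema3E and 4.66, 6.13 and 6.17 TPM after IgG, and at 3.60, 4.88 and 4.25 TPM in OST after Sema3E and 6.03, 6.15 and 7.67 TPM after IgG. Its difference between tissues was −0.83 (standard error 0.20, adjusted p = 0.199 in limma), and it was at an unadjusted p under 0.05 in all 20 alternatives, from −0.97 to −0.52. Neither passed the adjustment over all genes. The oocyte markers had a median log2 difference after Sema3E of 0.53 in GCs, where 6 of 7 tested markers were at an unadjusted p under 0.05, and of −0.79 in OST, where 0 of 8 were. Without OST IgG replicate 3 the OST median was −0.26, and the part of these markers was not tested. Both values are to be set against a median of −0.22 over all genes, and OST IgG replicate 3 had the highest value of both members in OST.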

How the results depend on the processing

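The threshold was an adjusted p under 0.05 between tissues and an unadjusted one elsewhere. Over all alternatives and tested members, the differences past it were recomputed to 567 values that stayed past it and 115 that did not, with 0 changes of sign. The differences not past it gave 52 values that passed (16 members) and 117 that changed sign, 5 of them both (Frzb without OST IgG replicate 3). Percentages in brackets are the shares of all genes that passed in the same fit. The number of members at an unadjusted p under 0.05 in GCs (1, with 5.11%) was 2 with no filter (5.8%). It was 0 in 1 fit over all 12 libraries (2.77%) and 0 to 3 without 1 library (2.85% to 10.6%). In OST (6, with 14.9%) it was 3 after scaling by median ratios (9.6%) and 3 to 10 without 1 library, 10 without OST IgG replicate 3 (20.1%) and 3 without OST Sema3E replicate 1 (5.87%). With a fold over 2 as well (1, with 0.946%) it was 2 at a pseudocount of 0.1 and in 1 fit over all 12 libraries. It was also 2 after scaling over protein-coding genes and where folds were ratios of mean TPM. It was 0 after scaling without OST IgG replicate 3, and 0 to 3 without 1 library, 3 of them without OST IgG replicate 1. For these alternatives with the fold, the shares of all genes are not given, so the counts cannot be set against them. The tissue comparison in IgG ovaries (11, with 8.64%) gave 5 after scaling (4.98%) and 15 in 1 fit over all 12 libraries (30.9%). It gave 5 to 12 without 1 library (3.03% to 12.1%) and 14 without both libraries that stood apart (20.3%). That in Sema3E ovaries (19, with 45.2%) gave 21 after scaling (with Fzd5 and Sfrp2; 52.9%) and 15 in 1 fit over all 12 libraries (without Fzd1, Lgr4, Wnt10b and Wnt11, 24.2%). It gave 16 to 20 without 1 library (33.1% to 43.5%). The tissue difference in response (8, with 18.3%) gave 5 to 10 (12.3% to 22.9%). The cause of these changes was not tested. Whether the replicate numbers pair the libraries is unknown. Deviations from the group means correlated at r = −0.18 to 0.34 in same-numbered libraries and at −0.37 to 0.30 in others. With 3 libraries per group, these values can neither show nor exclude pairing. With the number as a block, 1 member was at an unadjusted p under 0.05 in GCs (Wnt4 in place of Axin2). In OST there were 4 and for the tissue difference 7 (7.17%, 8.89% and 18% of all genes in these 3 comparisons). At an adjusted p under 0.05 there were 8 and 19 for the tissues in IgG and Sema3E ovaries (7.69% and 39.7% of all genes) and 0 for the other 3. No member passed an adjusted p under 0.05 after Sema3E under any alternative. Depth is unknown, which limits what can be said of members near 1 TPM.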

Other observations

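Sema3e itself was at 0.459 to 1.17 TPM in GCs and 0.199 to 0.582 TPM in OST. Plxnd1, which encodes its receptor, was at 8.13 to 12.5 TPM in GCs and 23.2 to 47.8 TPM in OST, lowest of the OST libraries in IgG replicate 3. The summed TPM of the 45 members was 515 in that library, 2133 to 2982 in the other OST libraries and 1352 to 2537 in GCs, and Sfrp4 and Fzd1 made up most of it outside that library.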
